A study of Drosophila melanogaster with 4 samples.

Results

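HP1a clusters on U, the unplaced sequence of the FlyBase r5 assembly of Drosophila melanogaster, are described here. A cluster is a region that the authors called enriched for HP1a, and the clusters on U were taken as every enriched region that the deposited lists place on that sequence. The combined set of the series held 1004 clusters on U out of 5583 in all. The list of replicate 1 held 1065 of 3564, and that of replicate 2 held 1159 of 4467. The chromatin came from head nuclei of adult flies of the wild-type strain Oregon-R (Oregon-R-modENCODE), of mixed adult age, with no transgene or treatment named. Flies were raised in population cages and their heads collected by sieving, so that each library pools many animals and all cell types of the head. The chromatin was precipitated with the antibody HP1 wa191, and each of the 2 ChIP libraries had its own input library. The input libraries were not analysed on their own here, so the reads behind a cluster and the depth per library are unknown here.

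HP1a is a chromodomain protein that binds methylated histone tails, pairs with itself through a second domain and draws further silencing factors to chromatin. It coats the repeat-rich heterochromatin around fly centromeres. U is made of scaffolds that could not be assigned to a chromosome arm, joined end to end, and much of such sequence comes from heterochromatin. The order along U is therefore an order of scaffolds, not of places on a chromosome, and neighbouring positions need not lie together on a chromosome. A separate sequence named Uextra held 0 clusters in each of the 3 lists and is not part of U. The bases of U were not read here, so that clusters are given by position and without gene or repeat names.

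HP1a clusters lay over most of U in both libraries. U is 10.05 Mb long, of which clusters covered 65.6% in replicate 1 and 54.0% in replicate 2. The mean was 59.8% ± 8.22 (SD, n = 2). The combined set covered 74.3%. On average 1112 ± 66.5 clusters (SD, n = 2) lay on U per replicate. U carried 29.9% of the clusters of replicate 1, 25.9% of those of replicate 2 and 18.0% of the combined set. It carried 28.0%, 23.7% and 24.9% of the covered bases of these lists. The labels do not say if the replicates were separate cultures, so the SD may be a technical spread.

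Clusters on U were mostly a few kb long, with a tail of long ones that held much of the covered sequence. The median length was 3737 bp in replicate 1, with quartiles of 2297 and 6540.0 bp. In replicate 2 the median was 3042 bp, with quartiles of 2038.5 and 5299 bp. The combined set had a median of 4419 bp and quartiles of 2412.5 and 8652.5 bp. By median and quartiles, replicate 2 was thus cut into more and shorter pieces than replicate 1, and the combined set into fewer and longer ones than either. Clusters of 20 kb or more numbered 47 and 25 in replicates 1 and 2, and 67 in the combined set. They made up 4.41%, 2.16% and 6.67% of the clusters, yet held 24.4%, 13.7% and 30.8% of the covered bases. Clusters under 2 kb, at the other end, held 3.46%, 7.43% and 3.20% of those bases. They numbered 138, 243 and 164, so the combined set had more of them than replicate 1.

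**Figure D1:**
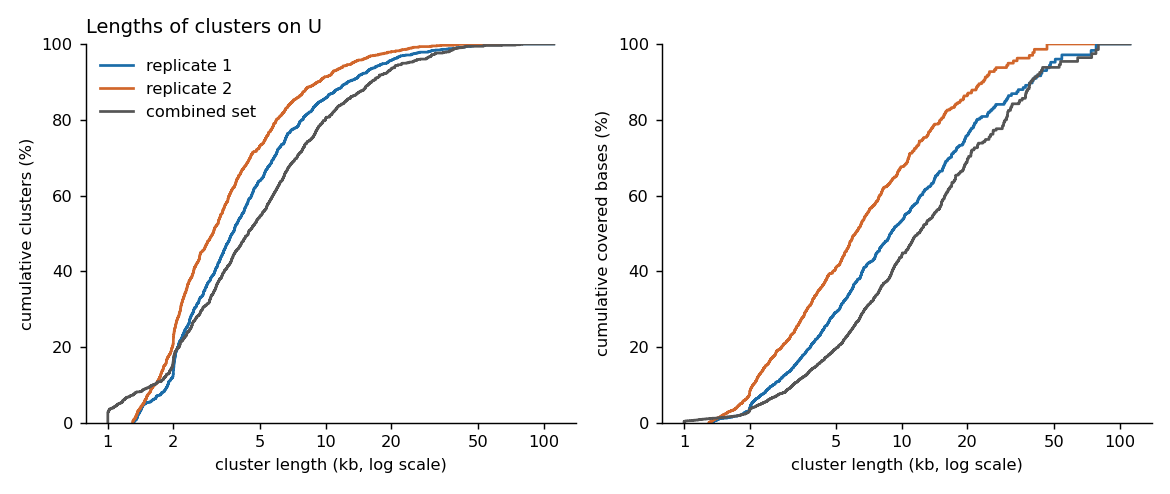
Cumulative share of clusters on U (left) and of the bases they cover (right) against cluster length in kb on a log scale, for replicate 1, replicate 2 and the combined set. Replicate 2 lies to the left of replicate 1, with medians of 3042 and 3737 bp, and the combined set, with a median of 4419 bp, lies to the right of both above about 2 kb.

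The scores on U were among the higher scores of each list. The score is the authors' own, on a scale not given in the sources used here, and was compared only within a list. In replicate 1 the median score on U was 2.29, with quartiles of 1.98 and 2.65, and 97.7% of the clusters on U reached the median of the whole list, 1.35. In replicate 2 the median was 1.93, with quartiles of 1.58 and 2.37, and 95.3% reached the list's median of 1.09. In the combined set the median was 2.00 and 99.1% reached the list's median of 0.615. Within U, score and length were nearly unrelated across clusters, with a Spearman's rho of 0.033 over the 1065 clusters of replicate 1, 0.19 over the 1159 of replicate 2 and 0.093 over the 1004 of the combined set. Long clusters on U were therefore not the high-scored ones.

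Along the first 7 Mb of U, coverage was dense, then thin, then dense again in both replicates, and past 7 Mb it was lower in replicate 2. Over 101 bins of 100 kb (the last of 49037 bp), the median coverage was 66.6% in replicate 1 and 52.0% in replicate 2. In 59 bins both replicates covered at least 50%. In 13 both covered less, in 29 replicate 1 alone reached 50%, and in 0 replicate 2 alone did. Across the 101 bins, coverage in the replicates had a Pearson's r of 0.88 and a Spearman's rho of 0.87, as a description, since neighbouring bins share clusters and both libraries share the sequence.

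**Figure D2:**
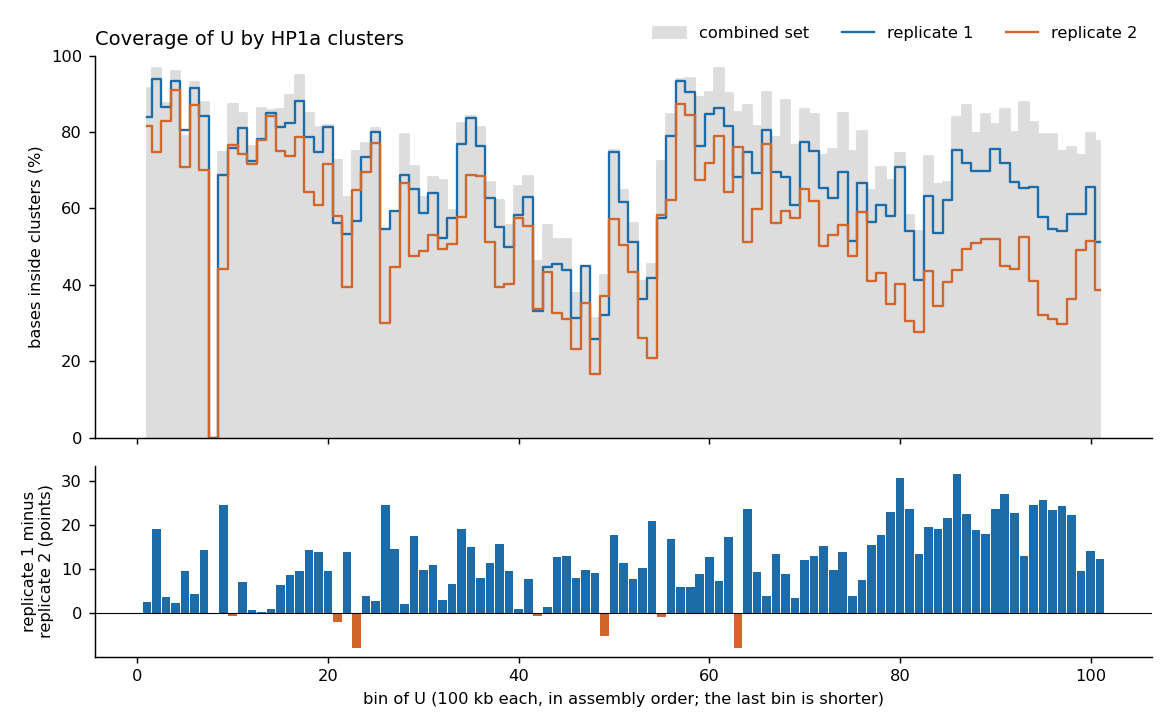
Upper panel, percent of bases inside clusters in each 100 kb bin of U, in assembly order, for replicate 1, replicate 2 and the combined set; lower panel, replicate 1 minus replicate 2 in percentage points. Bin 8 is empty in all 3 lists, bins 42 to 49 are below 50% in both replicates, and from about bin 77 onwards replicate 1 lies well above replicate 2.

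In both replicates the first 2 Mb of U held the densest cover. In the combined set the window from 6 to 7 Mb, at 86.1%, stood above those from 0 to 1 Mb (79.4%) and 1 to 2 Mb (85.2%). From 0 to 1 Mb, clusters covered 75.9% in replicate 1 and 67.9% in replicate 2, although this stretch contains the longest empty part of U. From 1 to 2 Mb they covered 80.3% and 73.2%. The first 7 bins, 1 to 700000, each reached 50% in both libraries and held 87.7% and 79.7% cover over their length. After the empty bin 8 and a bin 9 covered to 68.7% and 44.3%, a second run of 12 such bins extended from 900001 to 2100000, at 77.9% and 72.2%. Bin 4, at 300001 to 400000, had the highest coverage of any bin in replicate 2, 91.1%, and 93.4% in replicate 1.

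The middle of U was thinner. Coverage was 62.6% in replicate 1 and 54.7% in replicate 2 from 2 to 3 Mb, and 63.6% and 53.6% from 3 to 4 Mb. From 4 to 5 Mb it reached its lowest, 44.0% and 36.6%. The 8 bins from 4100001 to 4900000 formed the longest run in which both replicates stayed below 50%, at 37.7% and 31.7% overall. Within it, bin 48 was covered to 25.9% and 16.8%, less than any bin other than bin 8 in either replicate. The combined set covered 31.4% of bin 48, so that it too was thin there.

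A second dense part followed. From 5400001 to 7400000, all 20 bins reached 50% in both libraries, the longest such run on U, at 74.5% in replicate 1 and 64.9% in replicate 2. Its peak lay in bins 57 and 58, at 93.4% and 90.6% in replicate 1 and 87.4% and 84.5% in replicate 2. Of the 7 bins on U that both replicates covered to at least 80%, 5 lay before 2 Mb and the other 2 were these.

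Past 7 Mb the 2 libraries parted. Replicate 1 covered 63.7%, 63.7% and 61.4% of the windows from 7 to 8, 8 to 9 and 9 to 10.05 Mb, close to its level between 2 and 4 Mb. Replicate 2 covered 48.7%, 42.5% and 41.2% of the same windows. The combined set covered 75.2%, 73.7% and 79.9%, more than either. With the border at 7 Mb, which was chosen after seeing the bins, the difference between the replicates was 8.50 percentage points before it and 18.8 after it. Coverage was 66.8% before and 62.9% after it in replicate 1, and 58.3% and 44.1% in replicate 2. The means were 62.5% ± 6.01 before it and 53.5% ± 13.3 after it (SD, n = 2), so the SD past the border exceeded the difference between these means. These SDs are between the 2 libraries and do not measure the spread of the change within a library. Coverage fell across the border in both libraries, but in the combined set it was 73.4% before the border and 76.3% past it.

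Clusters past 7 Mb were shorter. Replicate 1 had 574 clusters before 7 Mb and 491 past it, replicate 2 had 705 and 454, and the combined set had 507 and 497. The median length was 4679 bp before 7 Mb and 3091 bp past it in replicate 1. In replicate 2 it was 3687 bp and 2450.5 bp, and in the combined set 6109 and 3505 bp. Clusters of 10 kb or more numbered 21 and 25 in the first and the second 1 Mb window of replicate 1, but 10, 5 and 2 in the last 3 windows. In replicate 2 they numbered 18 and 23 in the first windows and 2, 0 and 0 in the last 3. The median score did not fall with length: it was 2.25 before 7 Mb and 2.33 past it in replicate 1, and 1.88 and 2.02 in replicate 2. The last part of U was thus one of many short clusters of ordinary score for U.

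Uncovered stretches were mostly short. Outside the clusters of both replicates lay 3.15 Mb, or 31.4% of U, in 1024 stretches with a median of 1726 bp. Of these, 211 stretches of 5 kb or more held 1.85 Mb, 33 of 10 kb or more held 0.608 Mb and 5 of 20 kb or more held 0.225 Mb. Outside the clusters of replicate 2 taken alone, stretches of 5 kb or more held 3.24 Mb, and outside those of replicate 1 alone 2.06 Mb. Lack of HP1a, unknown bases in the assembly, repeats that reads cannot be assigned to and thin reading cannot be told apart in such a stretch.

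The longest uncovered stretch stood apart from all others. It ran from 695047 to 816903, 121.9 kb with 0 clusters inside it in any list, and took in the whole of bin 8. Its borders are by definition the ends of replicate clusters, here those of replicate 1. In replicate 2 and the combined set, clusters also stood near both ends of the stretch. In replicate 1 a cluster of 3.40 kb ended just before it and one of 15.8 kb, from 816904 to 832657, began at its end. In replicate 2 the nearest clusters were shorter, 1.42 kb on the left (693247 to 694665, score 0.955) and 2.98 kb on the right (819353 to 822335, score 2.23). In the combined set the flanking clusters were 29.3 kb (665750 to 695036) and 18.3 kb (816182 to 834448) long, with scores of 1.72 and 1.69, between the lower quartile of 1.68 and the median of 2.00 on U. The second longest stretch, from 4795032 to 4825850, was 30.8 kb long, and the third, from 2152860 to 2183358, was 30.5 kb long.

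Among the 10 longest uncovered stretches, the combined set treated some as empty and others not. It covered 0.592% of the first, 0.555% of the second, 0.123% of the one at 2512419 to 2530257 (17.8 kb) and 0% of the one at 5288456 to 5305495 (17.0 kb). It covered 27.2% of the third, 25.7% of the one at 4159000 to 4179666 (20.7 kb) and 19.5% of the one at 2247593 to 2265363 (17.8 kb). The remaining stretches of the 10, at 1109182 to 1130542 (21.4 kb), 5215524 to 5234854 (19.3 kb) and 4513219 to 4532464 (19.2 kb), were covered to 5.82%, 8.25% and 10.9%. Of the 33 stretches of 10 kb or more, 9 started between 4 and 5 Mb and 6 between 2 and 3 Mb. Between 4 and 5 Mb, 537.2 kb lay outside both replicates, of which stretches of 10 kb or more held 150.1 kb and shorter ones the rest. The 136.1 kb in such long stretches between 0 and 1 Mb was nearly all the single long one.

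**Figure D3:**
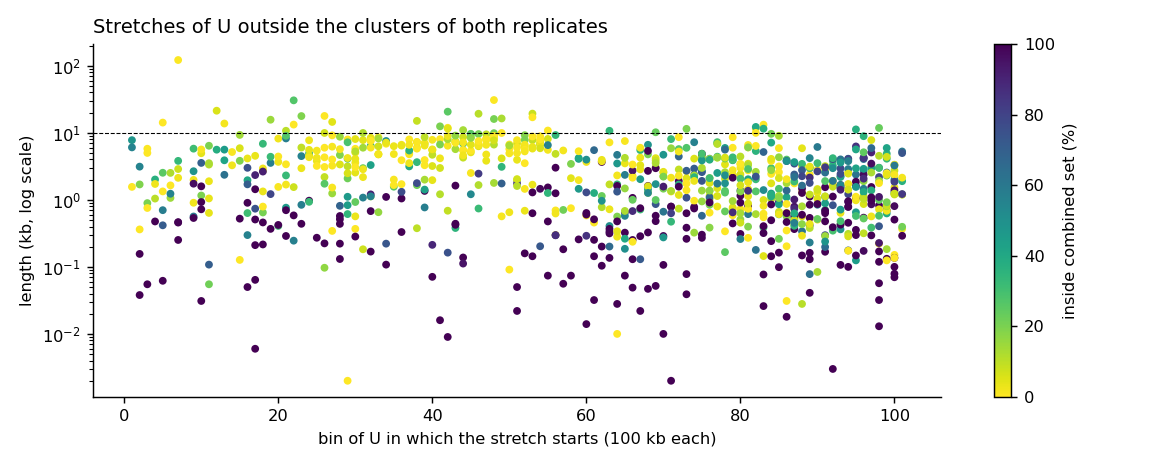
Each point is a stretch of U outside the clusters of both replicates, placed by the 100 kb bin in which it starts and its length in kb (log scale), and coloured by the percent of it inside the combined set; the dashed line marks 10 kb. One stretch of 121.9 kb stands above all others, and many stretches past bin 76 are short and partly inside the combined set.

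The 10 longest combined-set clusters were covered over most of their length in both replicates. They ran from 42.9 to 111.6 kb and together held 644.7 kb, or 8.64% of the combined cover of U. Replicate 1 covered each to at least 94.2% and replicate 2 to at least 76.8%. Of the 10, 6 started before 2 Mb. The longest, from 1151310 to 1262914, was 111.6 kb with a score of 2.10. Replicate 1 had it as 1 cluster of 111.4 kb (99.8% covered), the longest of that list. Replicate 2 had it as 8 clusters (97.3% covered), of which the longest was 33.8 kb and the shortest 2.00 kb, with scores from 0.570 to 2.51. The same stretch of U was thus a single cluster in 1 library and a chain of 8 in the other. Scaffold joins and unknown bases inside the long clusters were not located, so a block here means only a stretch of U.

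The other long blocks were split to different degrees. The cluster from 352536 to 430330 (77.8 kb, score 2.16) was 1 piece in each replicate, covered to 99.99% and 97.5%. The cluster from 563772 to 643580 (79.8 kb, score 2.07) was 3 pieces in replicate 1 and 4 in replicate 2. The cluster from 1314370 to 1388716 (74.3 kb, score 2.29) was 1 and 2 pieces. In the second dense part, the blocks from 5758052 to 5822152 (64.1 kb, score 2.06) and from 5673016 to 5715900 (42.9 kb, score 2.58) were 2 and 4 pieces in replicate 1 and 4 and 5 in replicate 2. The block from 3412730 to 3456412 (43.7 kb, score 1.68) was split as far as the longest one, with 1 piece and 99.4% cover in replicate 1 against 8 pieces and 76.8% in replicate 2. The remaining 3 of the 10, starting at 95406 (52.8 kb), 1930260 (53.5 kb) and 2402634 (44.2 kb), were covered to at least 94.2% and 87.1%. The first was 3 pieces in replicate 1 and 4 in replicate 2, and the others were 2 pieces in each. The scores of the 10 lay between 1.68 and 2.60, around the median of U.

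The 10 highest-scored combined-set clusters were a separate group, with 0 members among the 10 longest. Their lengths ran from 1001 to 5467 bp. Both replicates had a cluster in 3 of them. These were the regions at 7047530 to 7052996 (score 4.28), covered to 80.8% in replicate 1 and 64.7% in replicate 2, at 5971858 to 5976320 (score 4.26), covered to 86.1% and 82.0%, and at 6544352 to 6546900 (score 4.00), covered to 83.1% and 78.9%. Replicate 2 alone had the first-ranked region, at 7563152 to 7565296 (2145 bp, score 4.32, 95.01% covered). Neither replicate had the other 6. Those 6 were 2 of about 1 kb at 8404366 and 9409364, which shared a score of 4.09, and 4 starting at 2172278 (3205 bp), 4164152 (1009 bp), 7628464 (1125 bp) and 8177886 (1001 bp), which shared a score of 3.90 with another cluster ranked after them by position. Of these 6, 5 were under 1301 bp, the length of the shortest replicate cluster on U. A high combined score on U therefore did not mean that a replicate list held the region, though most of these regions were shorter than any replicate cluster there.

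Nearly all clusters of replicate 2 on U met one of replicate 1, which covered more sequence. Bases in clusters of both made up 5.11 Mb, or 50.9% of U. Replicate 1 alone covered 1.48 Mb (14.7%) and replicate 2 alone 0.307 Mb (3.06%). The Jaccard index, shared bases over all covered bases, was 0.74. Of the clusters of replicate 2, 96.8% (1122 of 1159; 95% Wilson interval 95.6 to 97.7%) met a cluster of replicate 1 by at least 1 bp. In the other direction 82.5% did (879 of 1065; 80.1 to 84.7%). These intervals cover counting error only and treat clusters as independent, which neighbours are not. At least 90% of the bases lay inside the other replicate for 941 clusters of replicate 2 but for 375 of replicate 1. By shared bases and by this 90% count, the map of replicate 2 on U was thus largely nested in that of replicate 1. The share that met by 1 bp says less. Replicate 1 covered 65.6% of U with a median spacing of 1913.5 bp between clusters, and the share expected from coverage alone was not computed.

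Most of the bases that replicate 1 covered alone lay beside shared bases. Clusters of replicate 1 that met replicate 2 held 1048 kb of its own bases, or 71.0%, as wider edges and bridged gaps. The 186 clusters of replicate 1 that met none held 428.1 kb, or 29.0%. The 37 unmatched clusters of replicate 2 held 69.2 kb. Unmatched clusters were short in both lists, with medians of 2019.5 bp in replicate 1 and 1937 bp in replicate 2, against 4392 and 3107.5 bp for matched ones. Their scores went opposite ways. In replicate 1 the median score was 2.06 for unmatched and 2.32 for matched clusters, and in replicate 2 it was 2.73 for unmatched and 1.91 for matched clusters. The longest unmatched cluster of replicate 1 ran from 186130 to 194012 (7883 bp, score 1.43), and that of replicate 2 from 2731949 to 2735295 (3347 bp, score 3.24). The combined set covered 99.4% and 100% of these, so both were retained there.

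Where 1 cluster of each replicate met, their borders were close. There were 549 such pairs, in which the starts lay a median of 240 bp apart and the ends 253 bp apart. Both ends lay within 500 bp in 251 pairs, or 45.7%. The cluster of replicate 2 lay strictly inside that of replicate 1 in 257 pairs, and the reverse held in 66. The medians of these paired clusters were 3659 bp in replicate 1 and 2869 bp in replicate 2. A further 217 clusters of replicate 1 met 2 or more clusters of replicate 2, while 73 clusters of replicate 2 met 2 or more of replicate 1. Splitting of blocks in replicate 2 was thus the commoner direction.

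The replicates differed along most of U, and by more in its last part. Replicate 1 had the higher coverage in 93 of 101 bins, replicate 2 in 7, and both were 0% in bin 8. The median difference was 11.3 percentage points. It reached 25 points in 4 bins past 7 Mb: bin 86 at 8500001 to 8600000 (75.3% against 43.9%), bin 80 (70.9% against 40.3%), bin 91 (72.0% against 44.9%) and bin 95 (57.7% against 32.1%). Bin 94, with 65.6% against 41.1%, came next. Early bins came close to 25 points, with 24.5 in bin 9 and 24.4 in bin 26. The count depends on the bins: it was 8 with bins that started 50 kb later, and bins of 50 kb raised the share from 3.96% to 12.4%. Of the bases in replicate 1 alone, 786.5 kb (53.3%) lay in the 7 Mb before the border and 689.4 kb (46.7%) in the 3.05 Mb past it. The largest excesses of replicate 2 were small and lay elsewhere. They were 7.91 points in bin 23 at 2200001 to 2300000 (56.8% in replicate 1, 64.7% in replicate 2), 7.79 points in bin 63 (68.3% and 76.1%), 5.22 points in bin 49 (32.0% and 37.2%), 2.02 points in bin 21 (56.1% and 58.1%) and 0.847 points in bin 55 (57.5% and 58.3%).

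By 1 Mb window, the Jaccard index was 0.86 and 0.88 in the first pair of windows and between 0.73 and 0.79 from 2 to 7 Mb. It was 0.67 from 7 to 8 Mb, 0.59 from 8 to 9 Mb and 0.55 from 9 Mb on. Unmatched clusters of replicate 1 made up 7.55% of its clusters from 0 to 1 Mb (4 of 53), 42 of 168 from 8 to 9 Mb and 27.7% from 9 Mb on (52 of 188). Those of replicate 2 stayed at or below 5.56% in every window. The number of clusters also changed places: replicate 2 had 78 clusters against 53 from 0 to 1 Mb, and 159 against 188 from 9 Mb on. Early in U replicate 2 had the same blocks in more pieces, and late in U it had fewer clusters. The sequence late in U also carried the shorter clusters, and the part of cluster length, depth or mappability in the difference was not tested.

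**Figure D4:**
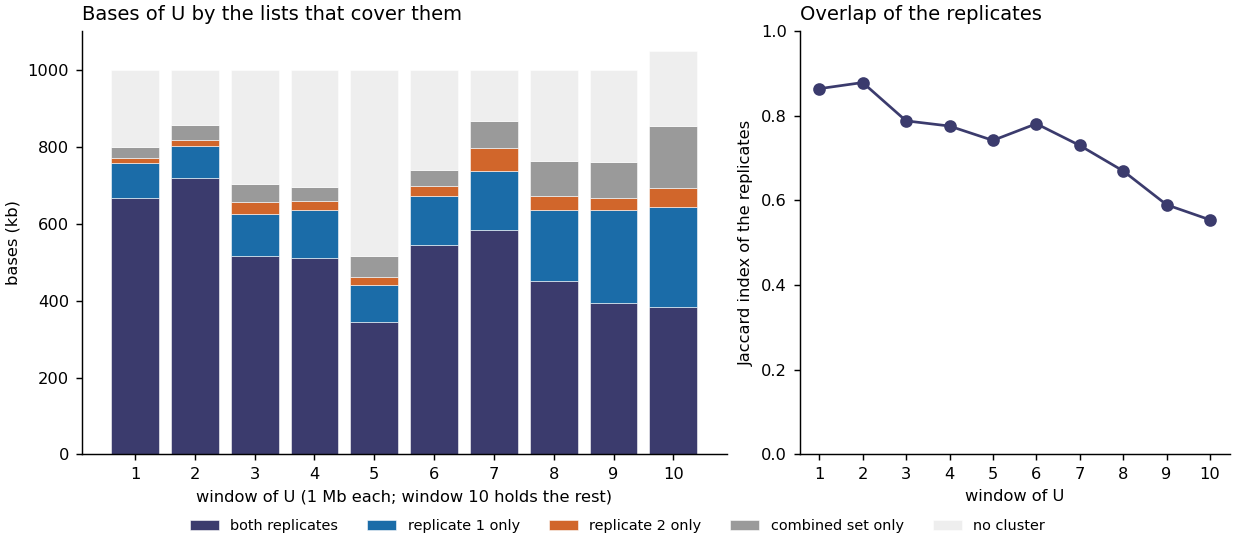
Left, bases in kb of each 1 Mb window of U by the lists that cover them (window 10 is slightly longer); right, the Jaccard index of the replicates in the same windows. Bases in both replicates shrink and bases in replicate 1 only or the combined set only grow in windows 8 to 10, where the index falls from 0.67 to 0.55.

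The combined set on U rested mainly on clusters that both replicates held, and added sequence that neither did. Of its 1004 clusters, 709 (70.6%) met both replicates, 160 replicate 1 alone, 16 replicate 2 alone and 119 (11.9%) neither. The share that met neither was 10.1% on the scaffolds 2LHet, 2RHet, 3LHet and 3RHet together. It was 20.5% on chromosome 4, 24.0% on XHet and 3.70% on YHet, so by number of clusters the share on U was not particular to U. The 709 held 91.3% of its bases and the 119 held 2.56%. All 199 clusters of 10 kb or more met both, and a longer cluster has more room to meet one. Counted by bases, both replicates supported 68.5% of the combined cover, a single replicate 22.6% and neither 8.84%. The last share exceeds 2.56% because combined clusters also reach past the replicate clusters they contain. It was 3.64% from 0 to 1 Mb and 19.3% from 9 Mb on, and 345.3 of the 659.6 kb lay past 7 Mb. By bases, the share in neither was 3.19% on 2LHet, 2RHet, 3LHet and 3RHet together, 3.75% on chromosome 4 and 2.52% on YHet. Among the compared sequences only XHet, at 20.4%, lay above U. Of the bases that a replicate covered, 94.3 kb fell outside the combined set, of which 91.0 kb were bases of replicate 1 alone and 6 bp were shared by both replicates.

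Clusters that met neither replicate were short and spread widely in score. Their median length was 1459 bp, against 6315 bp for those that met both, and 52 of the 119 were under 1301 bp, the length of the shortest replicate cluster on U. Their median score was 2.28 with quartiles of 1.77 and 3.04. Clusters that met both had a median of 2.05 with quartiles of 1.77 and 2.40, and those that met replicate 1 alone had a median of 1.54. Of the 75 clusters with a score of 2.9 or more, 32 met both replicates, 33 met neither and 10 met 1. The top of the score range on U was therefore shared between clusters with and without replicate support. Of the 33 that met neither, however, 26 had 1 of 7 score values that recurred exactly in the combined set of the whole series.

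**Figure D5:**
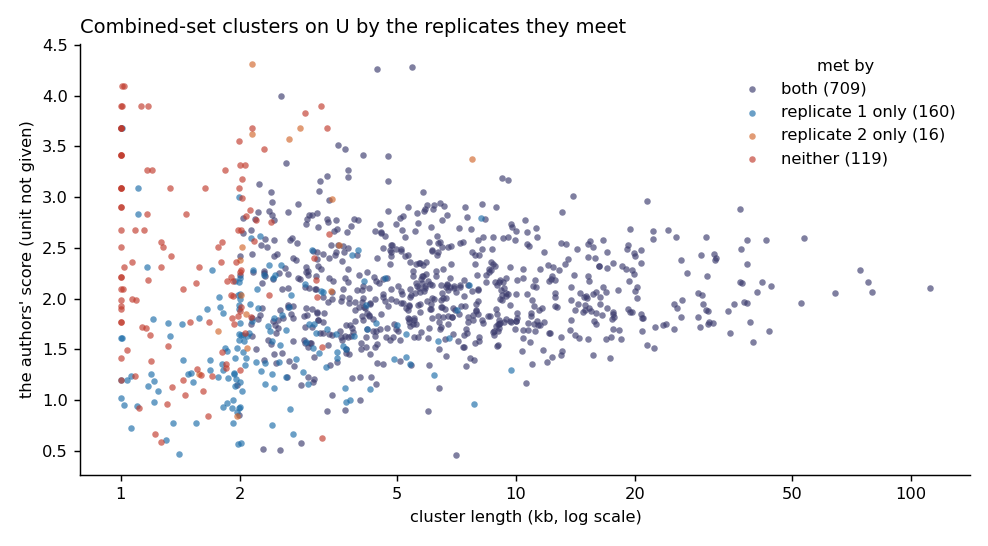
Score against length (kb, log scale) of the 1004 combined-set clusters on U, coloured by the replicates whose clusters they meet. All 199 clusters of 10 kb or more are met by both replicates, whereas clusters met by neither (119) are at most 3367 bp long and reach scores above 4.

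Scores in the replicates rose and fell together only in part. Over the 709 combined clusters that met both, the length-weighted mean scores had a Pearson's r of 0.58 and a Spearman's rho of 0.58, across regions of the same 2 libraries. Among clusters below the median length of 6315 bp rho was 0.54, and among the longer ones it was 0.66.

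U was less covered than the 4 placed autosomal heterochromatic scaffolds, and its replicates overlapped less. It was more covered than XHet, which stood at 47.3% in replicate 1 and 51.3% in replicate 2. YHet, at 70.5% and 50.7%, lay above U in replicate 1 and below it in replicate 2. The scaffolds 2LHet, 2RHet, 3LHet and 3RHet together, 8.73 Mb, were covered to 78.1% in replicate 1 and 73.3% in replicate 2. U lay 12.5 and 19.3 percentage points lower, a mean difference of -15.9 ± 4.80 points (U minus placed scaffolds; SD, n = 2). This difference exceeded the spread between the replicates and had the same sign in both. No test was run on it, since the series has 1 group of 2 replicates. Coverage on U was also below that of each of the 4 scaffolds taken singly, which ranged from 70.0% to 85.1% in replicate 1 and from 64.3% to 79.3% in replicate 2. The Jaccard index was 0.74 on U and 0.91 on the placed scaffolds. Before 7 Mb it was 0.80 on U, still below the scaffolds. Unequal coverage limits this index, and the ratio of coverage in replicate 1 to that in replicate 2 was 1.22 on U and 1.07 on the placed scaffolds.

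Clusters on U were shorter and denser in number than those on the placed scaffolds, with similar median scores. There were 106.0 clusters per Mb on U and 45.9 on the placed scaffolds in replicate 1, and 115.3 and 65.3 in replicate 2. The median length was 3737 against 9730.0 bp in replicate 1 and 3042 against 6549.5 bp in replicate 2. Clusters on XHet were shorter than on U, with medians of 2087.5 and 2766.5 bp, at 88.2 and 98.0 per Mb. Those on YHet had medians of 8586 and 3428.5 bp, at 72.0 and 126.8 per Mb. Median scores were 2.29 on U and 2.23 on the placed scaffolds in replicate 1, and 1.93 and 1.89 in replicate 2. Chromosome 4, by contrast, had lower median scores than U, 1.58 and 1.29, at a coverage of 81.2% and 74.7%. The clusters of U thus resembled those of the placed scaffolds in score and differed from them in length.

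The excess of replicate 1 over replicate 2 on U was not matched on every unplaced or heterochromatic sequence. It was 11.6 percentage points on U, 4.84 on the placed scaffolds, 6.49 on chromosome 4 and 19.8 on YHet, while on XHet replicate 2 was higher by a difference of -3.92 points (replicate 1 minus replicate 2). XHet and YHet are short, at 0.204 and 0.347 Mb, and held 25 and 27 combined-set clusters. The Jaccard index of U, 0.74, lay near those of XHet (0.73) and YHet (0.71) and below that of chromosome 4 (0.90). With 2 libraries these are descriptions of the 2 maps and not a tested difference between sequences.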

How the data were processed

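The authors deposited a list of enriched regions for each of the 2 ChIP replicates and a combined list for the replicate set. Bowtie 0.12.7 is among the tools named in the submitters' processing notes, and coordinates are on FlyBase r5 per the file headers. No source used here names the region caller, its threshold, the handling of reads with several matches or the way of combining replicates. The deposited score of a region has no stated unit. Coordinates are 1-based as deposited. The only change was to clip 1 combined-set cluster that ran past the end of U to the length in the header.

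Coverage, overlap (at least 1 bp), bins of 100 kb and windows of 1 Mb were computed with Python 3.11.15, numpy 2.4.6, pandas 2.3.3 and scipy 1.17.1, and plotted with matplotlib 3.10.9. Clusters were counted in the window that holds their midpoint. The interval functions were tested on simulated lists with known overlap. No test across regions was made, since regions are not replicates and the series has 1 group. The regions named are the 10 longest and 10 highest-scored combined-set clusters, the 10 longest stretches outside both replicates, the 5 bins with the largest excess in each replicate and the longest unmatched cluster of each. The members and these rules were chosen with earlier results of these data known. Pieces of the longest cluster, neighbours of the longest empty stretch and the border at 7 Mb were chosen after their values were seen. Depth per library is unknown, so no value carries a counting interval over reads.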

Additional observations from a re-analysis of the deposited data

How the results depend on the processing

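Of 43 alternatives, 31 stayed near the reported value (counts within 1.5 times, shares within their 95% interval, other values within 1 SD of the replicates), 12 moved beyond it and 0 changed sign. Leaving out a replicate of 2 cannot move their mean by 1 SD, so those alternatives say little. They gave 54.0% to 65.6% for coverage, 1065 to 1159 clusters, medians of 3042 to 3737 bp and 1.93 to 2.29 for length and score, and -19.3 to -12.5 points for U minus the placed scaffolds. With 1 replicate, the length in uncovered stretches of 5 kb or more was 2.06 to 3.24 Mb in place of 1.85 Mb, by construction longer, and 3.24 Mb without replicate 1 is over 1.5 times as much. Stretches of at least 2 kb gave 2.72 Mb and of at least 10 kb 0.608 Mb. With neighbours less than 1000 bp apart joined, the median length was 4804 bp. The Jaccard index of 0.74 became 0.72 with the upper-scored clusters of each list (its median or more), 0.71 with those of at least 2000 bp and 0.75 after merging. Its interval treats each base as independent and is very narrow. Asking for 50% of a cluster lowered the matched share to 74.6% in replicate 1 and 94.2% in replicate 2. Of the 119 combined clusters that met neither replicate, 27 were at least 2000 bp long. Bins that differed by 25 points numbered 8 in place of 4 when bins started 50 kb later, and made up 12.4% of bins of 50 kb in place of 3.96%, so this count depends on the bins. No paired analysis was possible because the replicate numbers pair ChIP with input and the inputs were not analysed on their own; U minus the placed scaffolds is already a difference within each library. Depth is unknown, so a cluster missing from 1 list does not show absence of HP1a.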

Other observations

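Lengths of clusters on U were not spread evenly. In the combined set 27 clusters were exactly 1001 bp long, and each of the 1004 clusters of that list started at an even position. In replicate 1, 26 clusters were between 1990 and 2010 bp long, against 3 in the equally wide range just below and 24 just above. Replicate 1 thus had a step up in number at this length and no clear peak. In replicate 2 the numbers were 35, 7 and 19, and in the combined set 21, 9 and 9. The replicate lists held 527 and 586 clusters with even starts.

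Scores recurred in the upper range. Above a score of 2.9, the combined set of the whole series had 7 values that were each shared by more than 2 clusters, 61 clusters in all. U held 34 of these 61. Of all combined-set clusters above 2.9, U held 75 of 125. Of the 34, 26 met neither replicate. The value of 3.68 alone was shared by 14 clusters, 8 of them on U.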
